A study of Mus musculus with 12 samples.

Results

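The comparison described here set the liver transcriptome of mice without NLRP6 (KO) against that of wild-type mice (WT) after both had eaten a high-fat diet (HFD). Its members were 6 of the 12 libraries of the series, 3 labelled NLRP6 knockout and HFD and 3 labelled WT and HFD, chosen by their genotype and diet labels. All mice ate a normal diet (ND) up to 8 weeks of age, and the HFD groups then received the high-fat feed for 12 weeks. The other 6 libraries came from 3 WT and 3 KO livers of mice that stayed on ND, and they entered the model as further groups. The labels give no strain, sex, deleted exon or promoter of a Cre, and no statement that each library is a separate animal. The design text calls the animals knockout mice and says that the loss was checked in hepatocytes, whereas the RNA came from frozen liver tissue.

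NLRP6 is a cytosolic sensor of the NOD-like receptor family. It is known for assembling inflammasomes, complexes that activate caspase-1 and lead to maturation of the interleukins IL-1β and IL-18, and it has been studied most in the intestinal epithelium and its relation to gut microbes. In a liver on a high-fat diet, hepatocytes store surplus fatty acids as triglyceride in lipid droplets. The design text asks what part NLRP6 has in that storage.

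The count table names its rows by strain-annotation IDs, none of which could be matched to a gene symbol. The row that holds Nlrp6, the markers of hepatocytes and other liver cells, and the genes of lipid droplets and inflammasomes were therefore not analysed here, and no sequence is shown. Genes are described by their levels, and 4 are named by ID by a rule on fold size. In whole liver, fewer cells of a type and less RNA per cell cannot be told apart.

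Total counts were 13718565 to 14567568 in the WT HFD libraries and 13339879 to 14708897 in the KO HFD libraries. Rows with at least 1 count numbered 17269 to 17903 in WT HFD and 17878 to 18021 in KO HFD. Neither measure differed beyond the spread of the libraries (two-sided exact permutation tests, p = 0.6 for each, where 3 against 3 allow no p below 0.1). The most abundant row held 8.33%, 9.43% and 9.16% of the counts in WT HFD replicates 1, 2 and 3, and 7.54%, 4.73% and 4.99% in the KO HFD replicates. Every KO share lay below every WT share, and the mean difference was -3.22 percentage points (two-sided exact permutation test, p = 0.1, the smallest possible). For the 100 most abundant rows together the shares overlapped, at means of 44.6% ± 0.629 for WT HFD and 43.5% ± 1.73 for KO HFD (mean ± SD of 3 libraries each; two-sided exact permutation test, p = 0.5).

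KO HFD replicate 1 stood apart from the other 2 KO libraries. Over the 7761 genes that averaged 10 CPM or more (normalised read counts on a common scale of library size), the median absolute log2 difference between KO HFD replicates 2 and 3 was 0.16. It was 0.35 between KO HFD replicates 1 and 2 and 0.245 between replicates 1 and 3. Against WT HFD replicate 1, KO HFD replicate 1 differed by only 0.15, less than any pair of KO libraries did. WT HFD replicate 1 also lay apart from its own group. It differed by 0.25 from WT HFD replicate 2 and by 0.19 from WT HFD replicate 3, while WT HFD replicates 2 and 3 differed by 0.13. Differences of at least 2-fold were found for 10.1% of these genes between KO HFD replicates 1 and 2, and for 1.22% between KO HFD replicate 1 and WT HFD replicate 1. Counts of called genes are therefore also given without KO HFD replicate 1, and single genes by library. Leaving it out moved the log2 fold change of the called genes, leaving aside a gene absent from KO, by at most 0.46. These genes were called with KO HFD replicate 1 in the fit, so a small change is partly set by the choice.

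**Figure D1:**
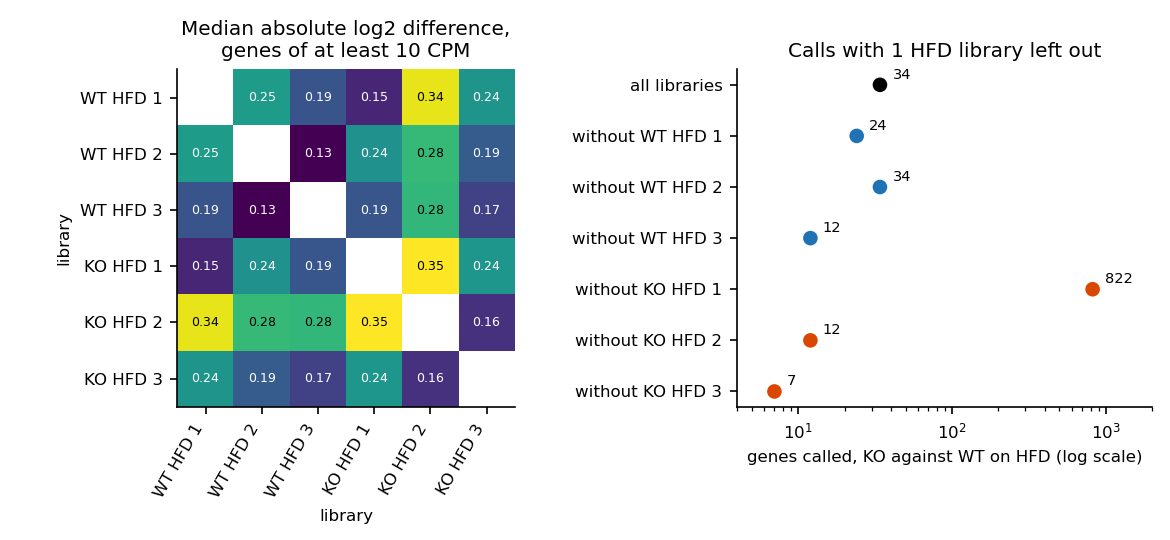
Left, the median absolute log2 difference in level between each pair of the 6 HFD libraries over 7761 genes that averaged 10 CPM or more; KO HFD replicate 1 is nearest to WT HFD replicate 1 and far from KO HFD replicate 2. Right, the number of genes that differed by genotype on HFD (adjusted p under 0.05, log scale) with all libraries, 34, and with each HFD library left out, from 7 to 822.

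Of the genes tested, 1 had 0 counts in every KO library and at least 5 in every WT library, over both diets. MGP_C57BL6NJ_G0033694 had 2981, 2198 and 2398 counts in WT HFD replicates 1, 2 and 3, and 0 in each KO HFD library. With a floor of 3 counts per library, it was at least 874-fold lower in KO HFD than in WT HFD. On ND it was at least 729-fold lower in KO, from 6407 counts over the 3 WT libraries and 0 over the 3 KO libraries. Whether this row is Nlrp6 could not be settled from its ID. KO HFD replicate 1 lacked it as fully as the other KO libraries did. Floors and intervals of counts cover counting error only.

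Across the transcriptome, 34 of 13843 genes tested differed between KO and WT on HFD at an adjusted p under 0.05 (edgeR quasi-likelihood test with Benjamini-Hochberg adjustment), which is 0.246% of those tested. In KO, 22 were lower (0.159% of those tested) and 12 were higher (0.0867%). Log2 fold changes ran from 1.08 to 5.72 for the higher genes, with a median of 1.53. The lower genes had a median of -1.49, and the smallest of these falls was -0.70. At an unadjusted p under 0.05 there were 1523 genes, 11.0% of those tested, 855 of them higher and 668 lower. The groups did not overlap for 1747 genes, 12.6% of those tested, in nearly even numbers of 908 higher and 839 lower.

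Single libraries decided how many genes were called. Without KO HFD replicate 1 there were 822 (5.79% of the genes then tested), 474 higher and 348 lower, and all 34 were among them. Leaving out KO HFD replicate 2 left 12 (0.0844%), as did leaving out WT HFD replicate 3 (0.0844%), and leaving out KO HFD replicate 3 left 7 (0.0493%). In the fits without WT HFD replicate 1 or 2, 24 and 34 genes were called (0.169% and 0.239%), with 7 and 6 of them higher. Of the 34 genes, 7 were called in all 6 such fits, 3 lower and 4 higher, while 9 were called in only 1 of them. DESeq2 called 261 genes, 136 higher and 125 lower, and only 8 passed when the ND libraries were left out of the model.

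Most genes had intervals that left little room for a large change. For 9386 genes, 67.8% of those tested, the 95% interval of the log2 fold change lay within 2-fold in either direction, and 60.1% without KO HFD replicate 1. This held for 91.5% of the 6259 genes between 10 and 100 CPM and for 86.5% of the 1502 genes at 100 CPM or more. Among the 1501 genes under 1 CPM it held for 1.73%, so at that depth a 2-fold difference could rarely be told from none. The median SE was 0.61 in that lowest class and 0.16 at 10 to 100 CPM. For all genes tested the median log2 fold change was 0.01.

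Called genes came from every level of abundance. Of those under 1 CPM, 1 was called, with 11 between 1 and 10 CPM, 14 between 10 and 100 CPM, and 8 at 100 CPM or more. Without KO HFD replicate 1 the same classes held 31, 230, 349 and 205 called genes, of 1501, 4581, 6259 and 1502 genes tested with all libraries. With all libraries the called share was 0.0666%, 0.240%, 0.224% and 0.533% in these classes. In direction, 6 of the 8 most abundant genes were lower in KO. Unannotated loci supplied 2 of the 34, a share of 0.362% of the loci tested against 0.241% of annotated genes.

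**Figure D2:**
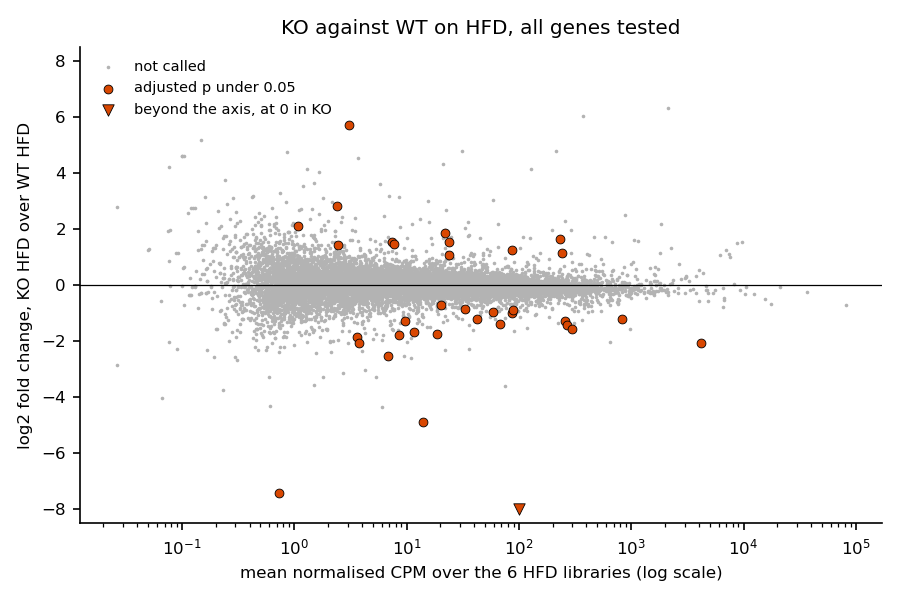
Log2 fold change of KO HFD over WT HFD against the mean level over the 6 HFD libraries (CPM, log scale) for all 13843 genes tested. Orange points are the 34 genes called; several grey points above a log2 fold change of 4 at 10 CPM or more are large differences that did not pass the test, and the triangle marks the gene at 0 in every KO library.

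The genes lower in KO on HFD differed widely in abundance. The most abundant of the 22, chosen for mention after its values were seen, stood at 7637, 6090 and 6737 CPM in WT HFD replicates 1, 2 and 3. In the KO HFD replicates it stood at 2452, 1080 and 1352 CPM, so the groups were far apart and KO HFD replicate 1 was the highest of the KO libraries. Its means were 6822 ± 777 and 1628 ± 727 CPM (mean ± SD of 3 libraries; log2 fold change -2.07 ± 0.28 SE, adjusted p = 0.00649 in edgeR). On ND it was at 10074 ± 2654 CPM in WT and 13629 ± 1473 CPM in KO (mean ± SD of 3 libraries; log2 fold change 0.44 ± 0.27 SE, adjusted p = 0.390 in edgeR). The difference between diets passed the interaction test, at a log2 difference of -2.50 (SE 0.39; adjusted p = 0.0138 in edgeR). The 22 lower genes held 0.834% to 0.967% of all counts in WT HFD and 0.220% to 0.340% in KO HFD.

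The largest proportional fall among genes still detected in KO was that of MGP_C57BL6NJ_G0017861. It had 384, 345 and 296 counts in WT HFD replicates 1, 2 and 3 and 12, 10 and 14 in the KO HFD replicates. These were 31.4, 26.4 and 23.9 CPM against 0.753 to 1.01 CPM, and KO HFD replicate 1 lay with the other KO libraries here. The log2 fold change was -4.87 ± 0.30 SE (adjusted p = 1.66e-06 in edgeR), and the gene was called in all 6 fits that left out an HFD library. On ND only 1 count was found over the WT libraries and 3 over the KO libraries, too few to compare.

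An unannotated locus was at 0 in every KO HFD library. It had 12, 25 and 19 counts in WT HFD replicates 1, 2 and 3, at least 6.46-fold higher than in KO HFD with the floor of 3 counts per library. On ND both genotypes had counts, 18 over the WT libraries and 13 over the KO libraries. It was called (edgeR adjusted p = 0.0152), but in only 3 of the 6 fits with a library left out. Apart from this locus and the gene absent from KO, no row had 0 counts in 3 libraries of one HFD group and at least 5 in each library of the other.

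Several lower genes were also lower in KO on the normal diet. The ND libraries had no part in the fold changes on HFD, but they shared in the estimate of spread behind the calls. Leaving aside the gene absent from KO, 6 of the 21 lower genes were called lower in KO on ND, where 2.85% of all tested genes were. A further 2 were called higher on ND, where 1.96% of tested genes were. Over the 21 genes the median log2 fold change was -1.43 on HFD and -0.36 on ND, against 0.00 on ND over all genes tested, and 15 of the 21 had a lower fitted level in KO on ND. With the absent gene, 7 of the 22 were called lower on both diets. With KO HFD replicate 1 left out, 8 of the 34 genes were called on ND in the direction they had on HFD with all libraries. This count was also 8 without WT HFD replicate 1 or KO HFD replicate 2. It was 4 without replicate 2 of either ND group. The HFD call was not required again in these fits.

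The 6 genes were of middle to high abundance, with means of 58.3 to 269 CPM over the HFD libraries. Their log2 fold changes were -1.43 to -0.87 on HFD (edgeR adjusted p from 0.00887 to 0.0350) and -1.70 to -0.81 on ND (edgeR adjusted p from 9.95e-04 to 0.0192). Each of these calls on HFD was kept in 1 to 4 of the 6 fits with an HFD library left out, so none held throughout. Without KO HFD replicate 1 the HFD log2 fold changes were -1.71 to -0.89. The differences between diets were -0.44 to 0.43 with SE of 0.21 to 0.33, and none passed the interaction test (edgeR adjusted p from 0.446 to 0.932). That does not show the effects to be equal.

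The most abundant of these 6 had 414, 369 and 391 CPM in WT HFD replicates 1, 2 and 3 and 195, 107 and 136 CPM in the KO HFD replicates. On ND it had 285, 327 and 233 CPM in WT and 140, 118 and 168 CPM in KO. Every KO library lay below every WT library on the same diet. Another of the 6 showed the largest fall on ND, from 679 ± 209 to 209 ± 15.5 CPM, and went from 365 ± 30.3 to 152 ± 8.53 CPM on HFD (mean ± SD of 3 libraries each). Its KO HFD libraries, at 161, 152 and 144 CPM, were close together, and replicate 1 did not stand apart from the others in it.

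Of the 21 lower genes, 10 passed the interaction test, which 1.21% of all tested genes did. They were chosen on the HFD difference that the interaction contains, so this count is raised by the choice. Their log2 differences ran from -6.94 to -1.03 (edgeR adjusted p from 0.00971 to 0.0401). The value of -6.94 (SE 1.42) belongs to the unannotated locus at 0 in every KO HFD library, so its size is not a measured one. Another 5 were called neither on ND nor in the interaction. Among the 10 was a gene that ran opposite ways on the diets. It averaged 27.6 ± 5.42 CPM in KO and 11.2 ± 3.19 CPM in WT on ND, and 1.47 ± 0.295 CPM in KO and 6.09 ± 2.92 CPM in WT on HFD (mean ± SD of 3 libraries each). Its log2 fold changes were 1.30 (SE 0.29, adjusted p = 0.0261 in edgeR) on ND and -2.05 (SE 0.37, adjusted p = 0.0372 in edgeR) on HFD. The HFD call of this gene was kept in only 2 of the 6 fits with an HFD library left out.

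One lower gene combined a large fall with tight replicates. It was at 25.5, 28.2 and 32.5 CPM in WT HFD and at 7.59, 9.34 and 8.68 CPM in KO HFD (log2 fold change -1.75 ± 0.17 SE, adjusted p = 2.80e-04 in edgeR). All 6 fits with a library left out called it. On ND its means were 8.01 ± 0.928 CPM in WT and 6.29 ± 0.903 CPM in KO (mean ± SD of 3 libraries each), levels near that of KO HFD.

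**Figure D3:**
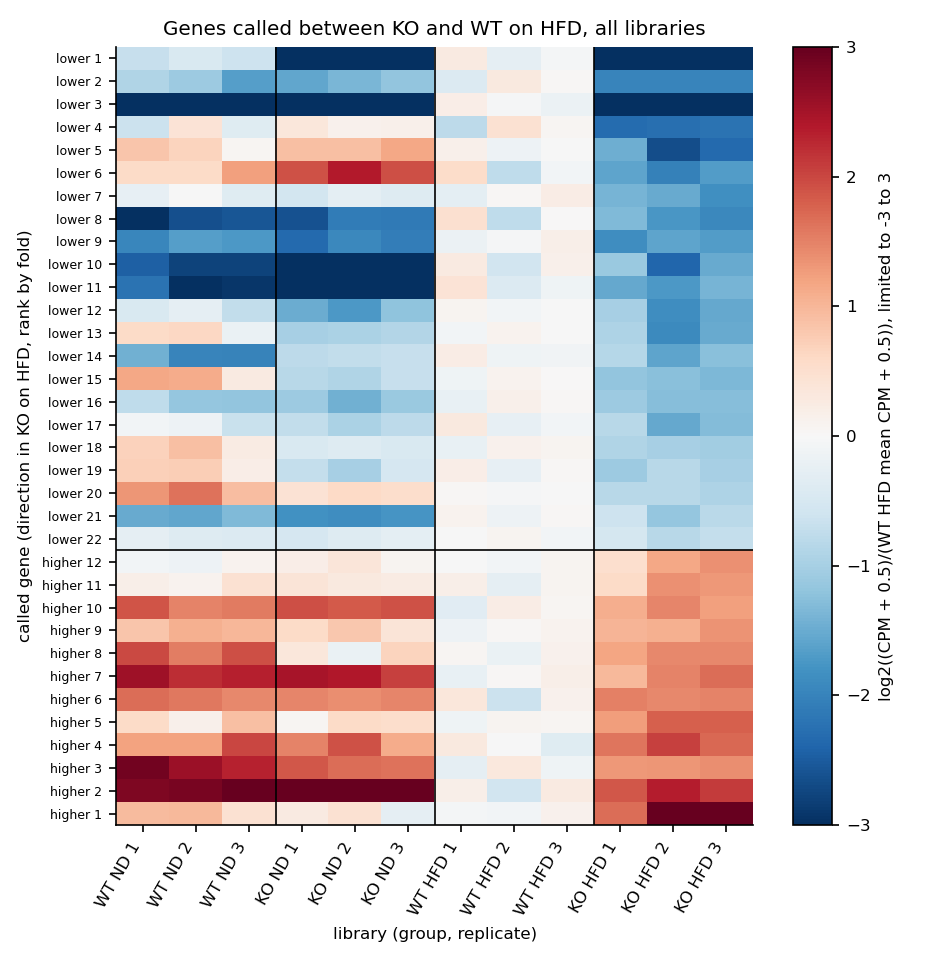
Level of the 34 called genes in all 12 libraries, as log2((CPM + 0.5)/(WT HFD mean CPM + 0.5)) limited to -3 to 3; columns are libraries by group and rows are genes, 22 lower and 12 higher in KO on HFD, ordered by fold. The HFD columns differ because the genes were chosen on them; the ND columns entered the choice through the estimate of spread, and 6 of the lower genes were called lower in KO there too.

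Of the 12 genes higher in KO on HFD, 6 averaged 1 to 10 CPM over the HFD libraries and 2 averaged 100 CPM or more. None of the 12 was called higher on ND, where 1.96% of all tested genes were. MGP_C57BL6NJ_G0033860 showed the largest rise. It had 17, 132 and 93 counts in KO HFD replicates 1, 2 and 3 against 1, 1 and 2 in the WT HFD replicates. The KO libraries thus lay at 1.43, 9.95 and 6.67 CPM, with replicate 1 well below the other KO libraries but above all WT libraries, which were at 0.0765 to 0.162 CPM. Its log2 fold change was 5.72 ± 0.87 SE (adjusted p = 0.0135 in edgeR). The call was kept in only 1 of the 6 fits with an HFD library left out, the one without KO HFD replicate 1. In the other 5 the adjusted p was 0.0530 to 0.0978 and the log2 fold change 5.15 to 6.11.

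MGP_C57BL6NJ_G0027644 had the second largest rise and did not depend on a single library. It was at 3.46, 5.05 and 4.16 CPM in KO HFD replicates 1, 2 and 3 and at 0.737, 0.229 and 0.809 CPM in the WT HFD replicates (log2 fold change 2.83 ± 0.34 SE, adjusted p = 0.00337 in edgeR). In the 6 HFD libraries fitted alone it was not called (log2 fold change 2.82, edgeR adjusted p = 0.0857). On ND it was at 8.03 ± 1.39 CPM in WT and 8.59 ± 0.637 CPM in KO (mean ± SD of 3 libraries each), so the KO HFD level lay between that of WT HFD and those on ND.

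The most abundant gene among the 12 was at 228, 395 and 374 CPM in KO HFD replicates 1, 2 and 3 and at 170, 125 and 159 CPM in the WT HFD replicates. The groups did not overlap, but KO HFD replicate 1 was nearer to WT than the other KO libraries were. Its log2 fold change was 1.13 ± 0.19 SE (adjusted p = 0.0268 in edgeR), and on ND it was 0.04 (SE 0.19; adjusted p = 0.935 in edgeR). Only the fit without KO HFD replicate 1 among the 6 kept the call. The next most abundant rose to 269, 393 and 388 CPM in KO HFD from 102, 118 and 117 CPM in WT HFD (log2 fold change 1.64 ± 0.21 SE, adjusted p = 0.00423 in edgeR), and all 6 fits kept its call.

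**Figure D4:**
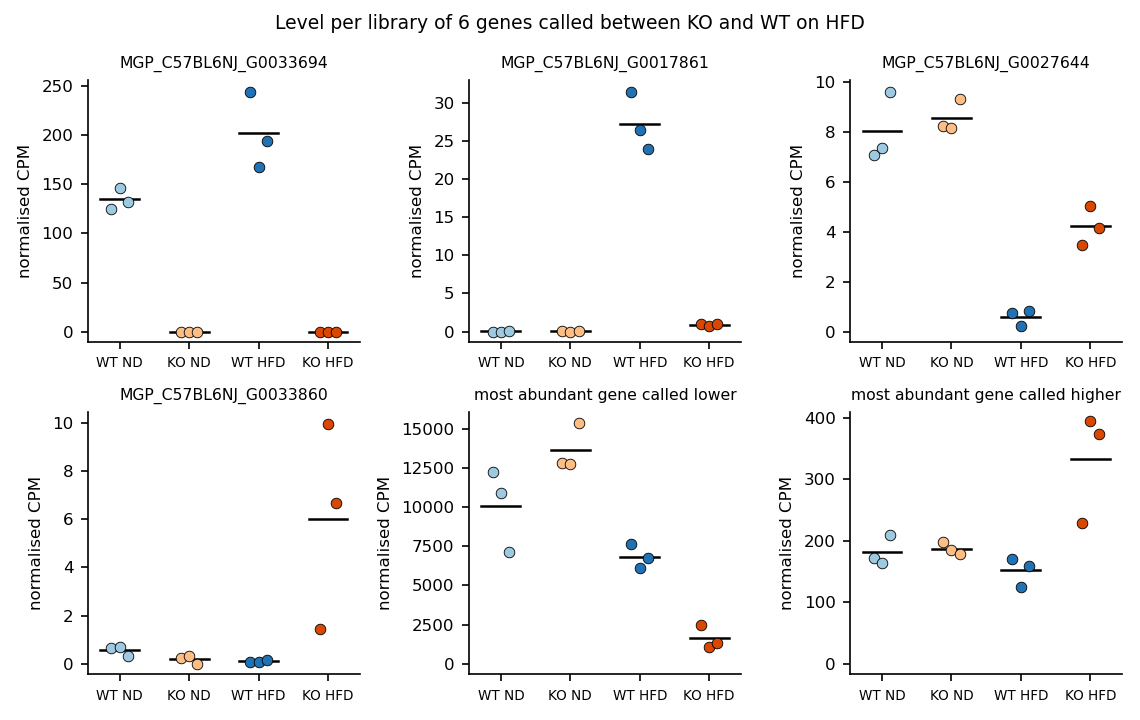
Normalised CPM in every library (points, replicates 1 to 3 from left to right) and group mean (line) for the 4 genes named by ID and for the most abundant gene called lower and called higher on HFD. Axes are linear and differ between panels; the KO HFD point of replicate 1 is the lowest of its group for MGP_C57BL6NJ_G0033860, MGP_C57BL6NJ_G0027644 and the most abundant higher gene.

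On ND the 12 higher genes had a median log2 fold change of -0.09 between KO and WT, with a range from -1.60 to 0.27. One of them was called, in the opposite direction. It was at 15.9 ± 2.58 CPM in WT and 5.21 ± 1.62 CPM in KO on ND, and at 4.10 ± 0.524 CPM in WT and 11.3 ± 1.17 CPM in KO on HFD (mean ± SD of 3 libraries each). Its difference between diets was a log2 value of 3.06 (SE 0.33, adjusted p = 0.00321 in edgeR). The HFD call of this gene was kept in only 1 of the 6 fits with an HFD library left out. Of the 12, 10 passed the interaction test, with log2 differences from 1.04 to 7.28 (edgeR adjusted p from 0.00321 to 0.0424). With the lower genes this made 20 of 34 against 1.21% of all tested genes. The interaction contains the HFD difference by which the genes were chosen, so this count is raised by the choice. It was also sensitive to single libraries, rose to 23 without KO HFD replicate 1, and fell to 4 when WT HFD replicate 3 was left out and to 5 when KO HFD replicate 3 was. It was 12 without replicate 2 of either HFD group, 11 without WT ND replicate 2 or KO ND replicate 3, and 13 without WT ND replicate 3, KO ND replicate 1 or KO ND replicate 2.

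Group means placed most of the 12 higher genes at a reduced level in WT HFD. The WT HFD mean was below the WT ND mean for 11 of the 12, and the KO HFD mean was below the KO ND mean for 4. The genes were selected as low in WT HFD relative to KO HFD, so the first of these counts is partly set by the choice. One example was at 12.4 ± 4.21 CPM in WT HFD and at 37.6 ± 3.29, 34.7 ± 0.910 and 35.7 ± 0.864 CPM in WT ND, KO ND and KO HFD (mean ± SD of 3 libraries each). In the plot of all libraries this gene is the higher gene ranked 6 by fold.

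**Figure D5:**
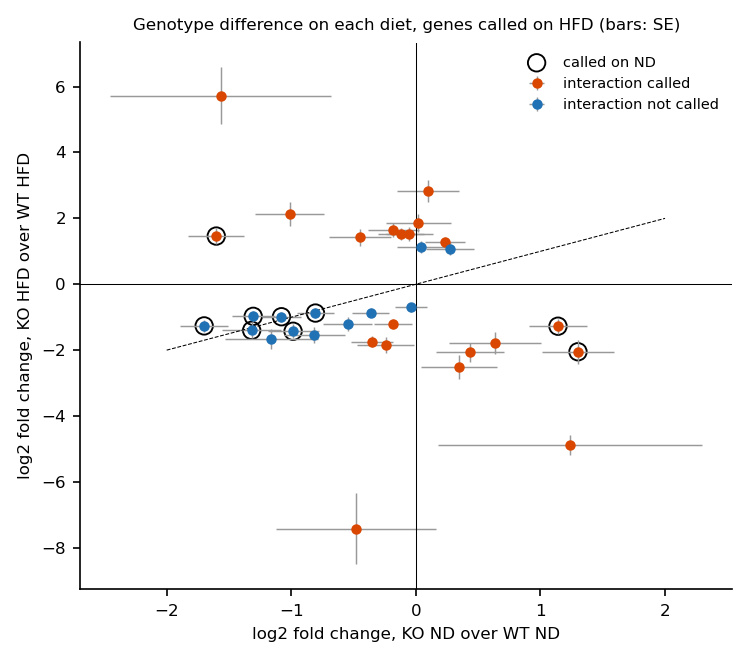
Genotype log2 fold change on HFD (vertical axis) against that on ND (horizontal axis) for 33 called genes, the gene absent from KO being off the scale; bars are SE. Rings mark genes called on ND: 6 lie near the dashed line of equal change and 3 have opposite signs on the 2 diets; orange marks the 20 genes whose difference between diets passed the interaction test.

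The largest differences of well-expressed genes mostly did not pass the test. At 4-fold or more and a mean of at least 10 CPM there were 27 genes, of which 3 were called. The other 24, 18 higher and 6 lower in fitted level, had adjusted p from 0.0874 to 0.633 (edgeR) and SE from 0.46 to 1.62. They were chosen on this contrast after the values were seen and are described without a test.

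For these 18 genes KO HFD replicates 2 and 3 were both above all WT HFD libraries, by a median of 6.93-fold for the lower of the pair against the highest WT library. KO HFD replicate 1 was within 0.8 to 1.2 times the WT HFD mean in 12 of the 18. The extreme case was an unannotated locus. It was at 47.5, 53.2 and 55.4 CPM in WT HFD replicates 1, 2 and 3, and at 53.1, 5145 and 7402 CPM in KO HFD replicates 1, 2 and 3. In KO HFD replicate 1 the locus was thus at the WT level, and in the other KO libraries it was among the most abundant transcripts of the liver. An annotated gene behaved alike, at 8.84, 13.3 and 11.8 CPM in WT HFD and 10.8, 1222 and 975 CPM in KO HFD. Yet another went from 258, 265 and 261 CPM in WT HFD to 276, 2093 and 2082 CPM in KO HFD.

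The same 18 genes varied among WT ND libraries. The highest WT ND library exceeded the lowest by a median of 3.38-fold, and by at least 2-fold in 15 of the 18. Among the WT HFD libraries the median was 1.55-fold, and 6 of the 18 reached 2-fold. The WT HFD libraries took part in choosing these genes, and the same spread over all genes is not given here. The unannotated locus above was at 69.6, 519 and 1286 CPM in WT ND replicates 1, 2 and 3 and at 23.8, 33.6 and 21.1 CPM in the KO ND replicates. Large levels of it were therefore found in WT libraries on ND and in KO libraries on HFD, but in no KO ND or WT HFD library. Without KO HFD replicate 1, 19 of the 24 genes were called, against 5.79% of all genes then tested. The 24 were picked for large fold changes on this contrast, so this count is raised by the choice.

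The wider set called without KO HFD replicate 1 followed a similar pattern. Of its 822 genes, 814 were tested with all libraries and are not the gene absent from KO, 468 higher and 346 lower. The 2 KO libraries in that fit were at a median log2 difference of 1.02 from the WT HFD mean for the higher genes and -0.94 for the lower genes. KO HFD replicate 1, which had no part in choosing them, was at 0.00 and -0.10, where its median over all genes was 0.01. It lay above all 3 WT HFD libraries for 142 of the 468 (30.3%) and below all 3 for 158 of the 346 (45.7%). Over all genes tested but the absent one, it lay above all 3 for 27.5% and below all 3 for 24.6%. The WT libraries are shared between the choice and this reading.

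The 34 called genes were different in this respect. Over the 21 lower genes the median log2 difference from the WT HFD mean was -1.11, -1.68 and -1.52 in KO HFD replicates 1, 2 and 3. Over the 12 higher genes it was 1.26, 1.56 and 1.68. The genes were called on the difference between these same libraries, so this is a description of the selection. KO HFD replicate 1 was still the KO library nearest to the WT mean in 16 of the 21 and 11 of the 12.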

How the data were processed

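Liver RNA had been made into libraries with a kit that keeps no strand, per the labels' protocols, so overlapping genes on opposite strands cannot be separated. The authors deposited raw read counts per gene, and mm39, featureCounts 1.5.0-p3 and HISAT2 2.0.5 appear in the submitters' processing notes. The IDs (41096 of the C57BL/6NJ strain annotation and 1458 unannotated loci) do not belong to the mm39 reference annotation, so no coordinates are given. The handling of reads shared by near-identical genes is not stated in the sources used here. None of the IDs matched a symbol (0 matches).

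Of 42554 rows, 13843 passed filterByExpr in edgeR over the 4 groups. They were tested by the robust quasi-likelihood test of edgeR 4.0.16 (R 4.3.3, TMM factors) in one model of all 12 libraries, with Benjamini-Hochberg adjusted p under 0.05 as the threshold. Intervals are 95%, and floors use 3 counts per library. Log CPM used a prior count of 2. DESeq2 1.42.0 and limma 3.58.1 were alternatives. The p-values measure the spread between samples, which may be technical in part. Replicates were no duplicates: pairs within an HFD group had a chi-square of 8.05 to 165 per degree of freedom.

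The members, the comparisons and the settings were chosen with earlier results of these data known. The naming rule took, among annotated called genes, the 2 with the largest rise and the 2 with the largest fall, with groups that did not overlap and a mean of at least 1 CPM. Other genes are described without ID, with their values in view when they were picked. The scripts were tested on simulated counts with known changes.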

Additional observations from a re-analysis of the deposited data

Results flagged for a closer look

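Of the 4 genes named by ID, 3 passed the interaction test of edgeR between HFD and ND. They were named for the size of their HFD difference, which the interaction contains, so these values are raised by the choice. For MGP_C57BL6NJ_G0033860 the log2 difference was 7.28 (SE 1.27, adjusted p = 0.0167), and its KO HFD libraries had 17, 132 and 93 counts. For MGP_C57BL6NJ_G0027644 it was 2.74 (SE 0.42, adjusted p = 0.0138), with a genotype log2 fold change of 0.10 on ND. For MGP_C57BL6NJ_G0017861 it was -6.11 (SE 1.32, adjusted p = 0.0401), although on ND the gene had only 1 count in WT and 3 in KO, summed over replicates.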

How the results depend on the processing

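Of 223 pairs of a result and an alternative setting, 174 were counted as unchanged. For a gene that meant the same direction and call, and for a count or percentage of genes a value within 1.5 times. For a share of counts it meant a change below the larger group SD. Genes not called on ND that stayed uncalled are among the 174. No gene or share of counts reversed in direction. For the calls on HFD, higher and lower, omitting the low-count filter gave 71 (26 and 45), a mean of at least 10 CPM 17 (6 and 11, fewer genes tested), DESeq2 261 (136 and 125), the 6 HFD libraries alone 8 (3 and 5, fewer samples) and limma-voom with sample quality weights 6005 (3114 and 2891), where KO HFD replicate 3 had a weight of 8.80 and KO HFD replicate 1 of 0.238; for DESeq2, the filter and the weights the cause was not tested. Leaving out 1 HFD library gave 7 to 822 calls, 4 to 474 higher and 3 to 348 lower. With 1 of the 12 libraries left out, 4 to 8 of the 34 genes were called in the same direction on ND and 4 to 23 in the interaction; these and the fit without the absent gene were added after seeing the data. With the replicate number as a block there were 47 calls, 11 higher and 36 lower. The labels do not say that equal numbers pair the samples. Deviations of same-numbered WT HFD and KO HFD libraries correlated at 0.235, 0.179 and 0.0380. Differently numbered libraries were not compared, so these values cannot decide whether the numbers mark a pairing or a batch. Of the 4 genes named by ID, MGP_C57BL6NJ_G0033860 lost its call on HFD under 7 of 13 alternatives (adjusted p up to 0.246) and MGP_C57BL6NJ_G0027644 under 1. Under 1 CPM, depth limits what could be found.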

Other observations

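Among the 12 genes higher in KO on HFD, the most abundant one has an ID whose number differs by 3 from that of the gene absent from KO, the closest of the called genes. Its genotype log2 fold change was 1.13 on HFD and 0.04 on ND. Whether the order of these IDs follows position in the genome was not tested.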
